A study of Saccharomyces cerevisiae with 10 samples.

Results

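De novo purine synthesis was followed through 10 genes of budding yeast (Saccharomyces cerevisiae): ADE1, ADE2, ADE4, ADE6, ADE8, ADE12, ADE13, ADE16, ADE17 and BAS1. They were taken by gene symbol from the 5449 yeast genes measured on the array. Each of the 10 had 1 probe set and was counted. Of the pathway, ADE5,7 has no named probe set here and was not analysed. Yeast builds the purine ring step by step on phosphoribosyl pyrophosphate (PRPP) until inosine monophosphate (IMP) is formed, and IMP then branches to AMP and GMP. The Myb-type activator Bas1 works with the homeodomain protein Pho2 to turn on most ADE genes when purines are short, through intermediates of the pathway itself, and adenine in the medium keeps the genes low.

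The strains lacked SUA5 or were wild type. Sua5 takes part in making the tRNA base threonylcarbamoyladenosine and has a known role at telomeres. The sua5D clones were mating type a spores dissected from a BY4743 diploid that was heterozygous for the deletion. They were profiled after 1 restreaking on rich plates (sua5D 1st, 4 clones), which the labels put at 35 generations from sporulation, and after 12 restreakings (sua5D 12th, 3 clones), put at 300 generations. For wild type, 3 clones of BY4742 served, a standard haploid of the alpha mating type. All 10 cultures were grown in liquid YPD to mid-log phase, and the RNA of each was hybridised to 1 Affymetrix array. Rich YPD medium carries purines of its own, and no culture was starved for adenine. Clones within a group are described as independent.

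SUA5 itself read 0.342 to 5.22 on the 7 deletion arrays, under the background limit of every one of them, against 506, 522 and 532 on the wild-type arrays. The background limit of an array, the percentile 95 of its probe sets for another yeast, was 10.8 to 17.5. All 7 measured genes specific to mating type a were higher in both deletion groups and all 5 specific to mating type alpha were lower. Each comparison with the wild type thus also compared the mating types, and deletion and mating type cannot be told apart. Of 5 genes listed for haploid cells of either type, 3 passed as lower in sua5D 1st and 4 in sua5D 12th, with 0 higher. The log2 changes in sua5D 1st and sua5D 12th were -2.64 and -3.21 for HO and -0.997 and -1.11 for GPA1. Those of FUS3 were -1.01 and -0.977. STE18 passed in sua5D 12th only, and STE4 in neither group. The cause of these falls was not tested. The 4 arrays of sua5D 1st formed pairs, 1 with 2 and 3 with 4. The SD of the log2 difference between arrays was 0.136 and 0.121 within the pairs and 0.217 to 0.236 between them. The lysine synthesis gene LYS2 was at 15.6 and 9.34 in the pair formed by replicates 1 and 2, but at 2953 and 2890 in the other pair, against 53.7, 29.3 and 10.8 in sua5D 12th and 10.9 to 17.4 in the wild type. MET17, of methionine synthesis, split in the same way, with no value above 15.3 in the first pair and 4899 and 4662 in the other, against 96.9, 30.6 and 8.09 in sua5D 12th and 4176 to 4381 in the wild type. The groups compared below therefore differed in these marker genes too, and their part in the results was not tested. The 10 purine genes lay well above background, the lowest value on any array being 562 for BAS1. Precision is limited by the small number of arrays. The p-values of the gene tests rest on 1 spread between clones per gene, shared by all groups and drawn toward genes of like intensity. They count the 4 arrays of sua5D 1st as separate clones, although these formed pairs.

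The comparison of sua5D 1st with the wild type concerns cells that lost SUA5 a short time before. Of the 10 genes, 7 fell, 2 (ADE12 and BAS1) rose by 1.10-fold and ADE8 did not pass the test (limma, Benjamini-Hochberg adjusted over all 5449 genes, threshold 0.05). The fallers were ADE17, ADE2, ADE4, ADE13, ADE1, ADE6 and ADE16. All of them encode enzymes on the route to IMP. Their intensities came to 25.1% (ADE17) to 82.3% (ADE16) of the wild-type mean. Over all genes 37.5% were called lower and 41.5% higher in the same comparison, 79% in either direction, so a fall by itself was common on these arrays. Every deletion array lay below every wild-type array for the same 7 genes and above for BAS1, against 36.3% and 40.4% of all genes. A fall of at least 1.5-fold was less common. It was called for 5 of the 10 genes and for 11% of all genes. ADE6, at 1.48-fold lower, was near that cut. Over the 22 alternatives its log2 change ran from -0.68 to -0.40, on both sides of the cut, so the count depends on the setting. The median log2 change of the 10 genes was -0.65, beside 0.03 for all genes tested. In a bulk culture, fewer expressing cells and less RNA per cell cannot be told apart.

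**Figure D1:**
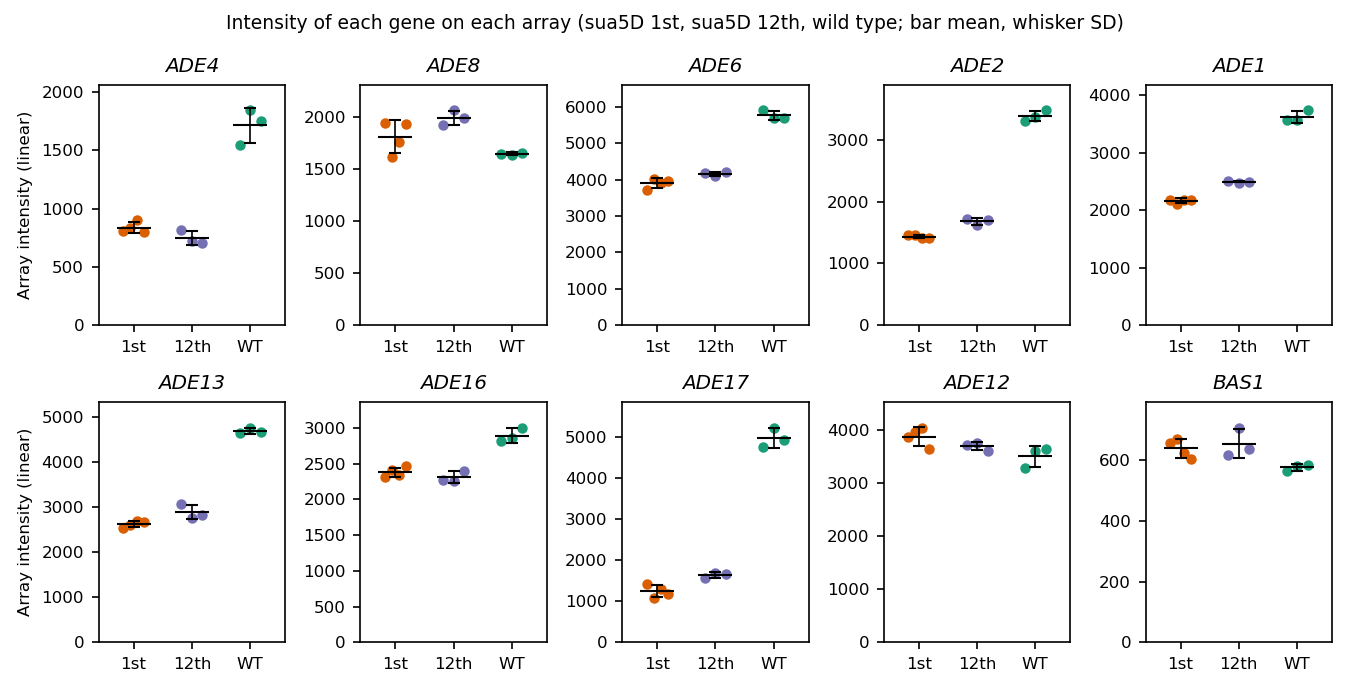
Array intensity (linear scale, from 0) of each of the 10 genes on every array of sua5D 1st (n = 4), sua5D 12th (n = 3) and wild type (WT, n = 3), with the group mean as a bar and the SD as a whisker. ADE4, ADE6, ADE2, ADE1, ADE13, ADE16 and ADE17 were below the wild type on all 7 deletion arrays, while ADE8, ADE12 and BAS1 were not.

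ADE4 encodes PRPP amidotransferase, the committing step of the pathway and the target of its feedback inhibition by adenine nucleotides. It read 807, 834, 906 and 802 in sua5D 1st and 1550, 1845 and 1753 in the wild type. The 4 deletion values lay far below the lowest wild-type value. The fall was 2.03-fold (log2 change -1.02, SE 0.07, adjusted p = 8.22e-09).

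ADE8 encodes the glycinamide ribonucleotide transformylase, which brings in a formyl group from folate. It did not follow ADE4. It read 1945, 1616, 1759 and 1930 in sua5D 1st, against 1649, 1633 and 1659 in the wild type. The groups overlapped, because replicate 2 lay below all 3 wild-type arrays. The log2 change was 0.13 with a 95% interval of 0.01 to 0.26 for the gene taken alone, and the adjusted p was 0.0504. It passed without replicate 2 (log2 change 0.19, adjusted p = 0.00336), without replicate 3 (0.15, adjusted p = 0.0499) with the clone pairs averaged (0.13, adjusted p = 0.0205), with replicates 3 and 4 alone (0.16, adjusted p = 0.0118) and under quantile normalization (0.20, adjusted p = 0.0095), 5 of the 22 alternatives. It came to 0.02 (adjusted p = 0.768) after the array medians were set equal.

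ADE6 encodes formylglycinamidine ribonucleotide synthetase, which adds an amide nitrogen from glutamine. It read 3729, 4016, 3924 and 3969 in sua5D 1st and 5911, 5701 and 5710 in the wild type, a fall of 1.48-fold (log2 change -0.56, SE 0.03, adjusted p = 3.38e-09). The groups did not overlap.

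ADE2 encodes the AIR carboxylase, known from the red pigment of yeast that lacks it. It read 1457, 1457, 1405 and 1417 in sua5D 1st and 3309, 3376 and 3482 in the wild type. The deletion arrays differed among themselves by little, and each was under the lowest wild-type value. The fall was 2.35-fold (log2 change -1.23, SE 0.04, adjusted p = 4.16e-12).

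ADE1 encodes SAICAR synthetase, the step after Ade2. It read 2186, 2112, 2186 and 2186 in sua5D 1st, against 3567, 3562 and 3739 in the wild type. All 4 values were below the wild-type range, by 1.67-fold on average (log2 change -0.74, SE 0.03, adjusted p = 2.07e-10).

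ADE13 encodes adenylosuccinate lyase, which acts both on the way to IMP and in the branch from IMP to AMP. It read 2533, 2595, 2685 and 2673 in sua5D 1st and 4654, 4768 and 4658 in the wild type. The groups were separate and the fall was 1.79-fold (log2 change -0.84, SE 0.04, adjusted p = 2.94e-10).

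ADE16 and ADE17 encode isozymes that carry out the last steps to IMP, the formylation of AICAR and the closing of the ring. ADE17 fell by the largest fold of the 10 genes in both comparisons with the wild type. It read 1432, 1081, 1302 and 1179 in sua5D 1st and 4762, 5240 and 4943 in the wild type. The fall was 3.97-fold (log2 change -1.99, SE 0.08, adjusted p = 2.64e-11). Among the 5449 genes ADE17 had the 29th lowest log2 change, ADE2 the 86th and ADE4 the 141st. ADE16 read 2318, 2404, 2341 and 2459 in sua5D 1st, against 2809, 2860 and 3003 in the wild type. It too was lower on every deletion array, but by 1.21-fold (log2 change -0.28, SE 0.04, adjusted p = 2.02e-05). The log2 ratio of ADE17 over ADE16 within each array was used to test whether the isozyme genes changed unequally. It averaged -0.74 ± 0.28 on the 7 deletion arrays and 0.78 ± 0.08 on the 3 wild-type arrays (SD). The difference of -1.52 had p = 0.0167 by an exact two-sided permutation test over samples, the smallest p that 7 against 3 arrays allow. That test pooled both restreakings and counted the arrays of sua5D 1st as separate clones, although these formed pairs. For sua5D 1st alone the difference was -1.71 and for sua5D 12th alone -1.27. The smallest exact two-sided p possible is 0.0571 with 4 against 3 arrays and 0.1 with 3 against 3, and each comparison gave that p.

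**Figure D2:**
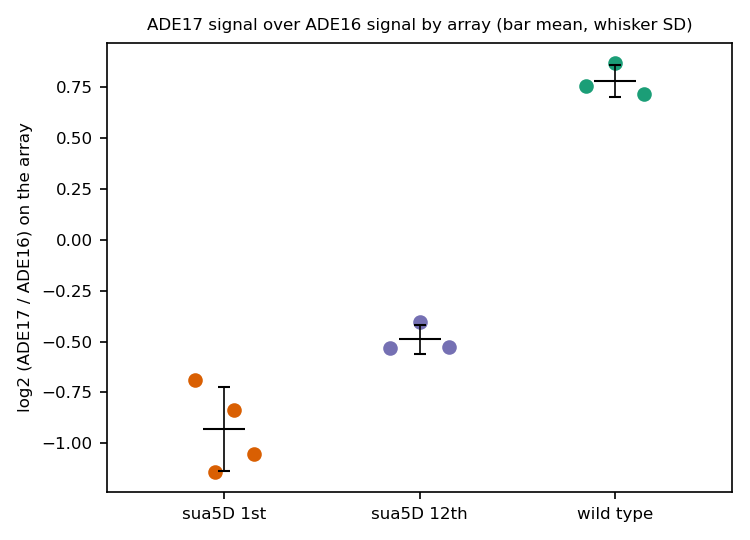
Log2 ratio of the ADE17 intensity over the ADE16 intensity within each array, for sua5D 1st, sua5D 12th and wild type (points are arrays, bars means, whiskers SD). The 4 arrays of sua5D 1st lay between -1.14 and -0.69 and the 3 of sua5D 12th between -0.53 and -0.41, and the wild-type arrays lay between 0.72 and 0.87. The probe sets differ, so the sign of the ratio carries no meaning and only its change between groups was read. The probe sets of these isozyme genes may share signal, which would affect that change too and was not tested.

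ADE12 encodes adenylosuccinate synthetase, the entry from IMP to AMP. It read 3858, 3955, 4044 and 3633 in sua5D 1st and 3279, 3597 and 3645 in the wild type. The groups overlapped, with replicate 4 inside the wild-type range. The log2 change was 0.14 (SE 0.05, adjusted p = 0.0111). That call was lost without wild-type replicate 1 (log2 change 0.10, adjusted p = 0.079) and after setting the array medians equal (0.03, adjusted p = 0.61), and under quantile normalization the change was 0.27 (adjusted p = 6e-05).

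BAS1, the activator's own gene, read 657, 669, 622 and 603 in sua5D 1st and 562, 581 and 584 in the wild type. All 4 deletion values were above the wild-type range, by a log2 change of 0.14 (SE 0.06, adjusted p = 0.0349). The call did not hold after setting the array medians equal (0.03, adjusted p = 0.638) or under quantile normalization (0.03, adjusted p = 0.6). It was also lost without replicate 1 or 2 of sua5D 1st (adjusted p = 0.0737 and 0.0922), with replicates 3 and 4 alone (adjusted p = 0.245), with the clone pairs averaged (adjusted p = 0.0803), and without wild-type replicate 1, 2 or 3 (adjusted p = 0.102, 0.0556 and 0.0541). Without wild-type replicate 1 no gene of the 10 was called higher.

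The scaling of the arrays bears on these small changes. Setting the array medians equal lowered the change of the median gene by 0.109 and quantile normalization lowered it by 0.103 on the log2 scale. The 7 falls were called under all 22 alternatives to the processing. The change of ADE16 was -0.39 and -0.17 under these scalings, while that of ADE17 was -2.10 and -1.88. The falls did not follow the clone pairs. With replicates 1 and 2 alone ADE17 changed by -1.99 and ADE2 by -1.21, and with replicates 3 and 4 alone by -1.99 and -1.25.

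**Figure D3:**
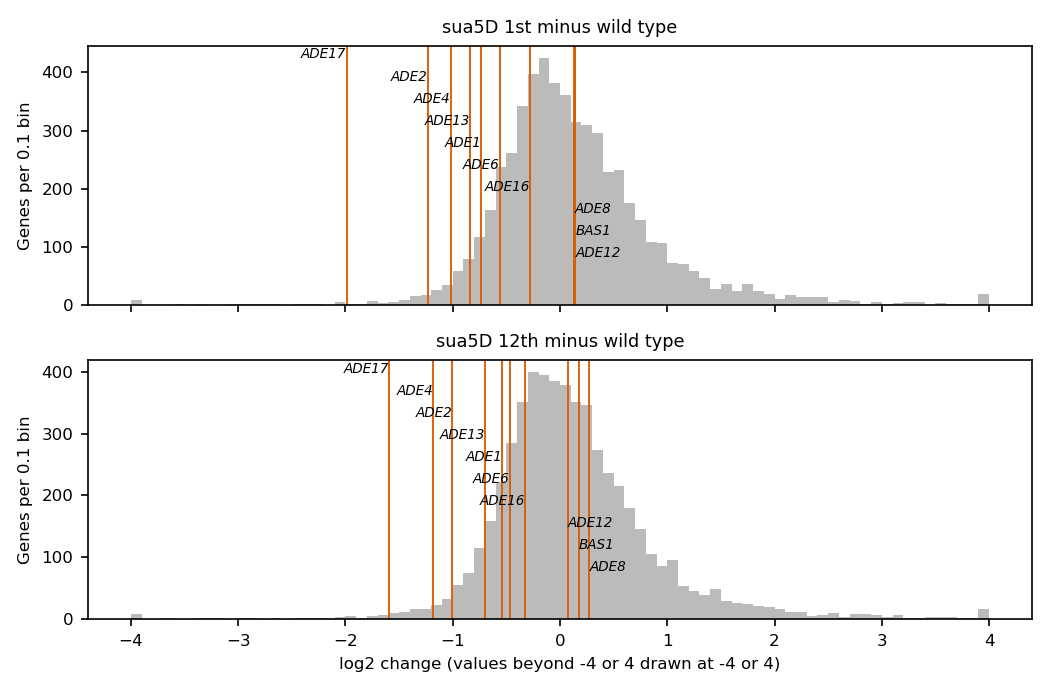
Histograms of the log2 change of all 5449 genes in bins of 0.1 (grey), for sua5D 1st minus wild type (top) and sua5D 12th minus wild type (bottom), with the 10 purine genes as lines. At the first restreaking ADE17 sits at -1.99, far in the lower tail, ADE16 at -0.28, and ADE8, ADE12 and BAS1 lie just above 0.

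The comparison of sua5D 12th with the wild type asks what remains after long propagation. It shares the wild-type arrays with the comparison above. The 7 genes that had fallen were lower here too, and ADE8 and BAS1 were higher. Over all genes 36.9% were called lower and 40.9% higher, 77.8% in either direction. No overlap with the wild type was seen for the same 9 genes, 7 below and 2 above, against 37.8% and 41.9% of all genes. The median log2 change of the 10 genes was -0.50, beside 0.03 for all genes. That of the 10 genes was -0.62 with equal array medians and -0.36 under quantile normalization. A fall of at least 1.5-fold was called for 4 of the 10 genes, ADE17, ADE4, ADE2 and ADE13, and for 10.8% of all genes. ADE13, ADE1 and ADE6, at 1.62-fold, 1.45-fold and 1.39-fold lower, were near that cut. Over the 22 alternatives their log2 changes ran from -0.81 to -0.55, -0.65 to -0.42 and -0.59 to -0.30. Each range crossed the cut, so the count depends on the setting.

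ADE17 read 1565, 1697 and 1664 in sua5D 12th, still under the lowest wild-type value of 4762. The fall was 3.01-fold (log2 change -1.59, SE 0.08, adjusted p = 5.92e-10), the 49th lowest log2 change of all genes. ADE4 read 815, 722 and 703 in sua5D 12th, a fall of 2.27-fold (log2 change -1.18, SE 0.07, adjusted p = 4.41e-09). ADE2 read 1721, 1615 and 1706, which was 2.01-fold below the wild type (log2 change -1.01, SE 0.04, adjusted p = 7.8e-11). For these 3 genes the deletion and wild-type arrays did not overlap.

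ADE13 read 3067, 2771 and 2831 in sua5D 12th and was 1.62-fold lower than the wild type (log2 change -0.70, adjusted p = 4.45e-09). ADE1 read 2501, 2482 and 2494 and was 1.45-fold lower (log2 change -0.54, adjusted p = 1.24e-08). ADE6 read 4181, 4094 and 4216 and was 1.39-fold lower (log2 change -0.47, adjusted p = 5.12e-08). ADE16 read 2272, 2253 and 2401 and was 1.25-fold lower (log2 change -0.32, adjusted p = 1.01e-05). Each of the 4 stayed below the wild type on all 3 arrays.

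ADE8 read 1928, 2066 and 1990 in sua5D 12th, above the wild-type range of 1633 to 1659. It was 1.21-fold higher (log2 change 0.27, SE 0.06, adjusted p = 0.00115), a call that held under all 22 alternatives, with log2 changes of 0.16 to 0.32. Those that only dropped or averaged sua5D 1st arrays left the ADE8 estimate unchanged and altered only the spread. The gene of the transformylase thus moved opposite to ADE4 and ADE6, whose enzymes act earlier and later on the route. BAS1 read 618, 706 and 635, above the wild-type range of 562 to 584. Its log2 change was 0.18 (adjusted p = 0.0182). The call was lost without sua5D 12th replicate 2 (adjusted p = 0.106), without wild-type replicate 1 (adjusted p = 0.0566), with equal array medians (0.06, adjusted p = 0.374) and under quantile normalization (0.06, adjusted p = 0.361), so that ADE8 alone then counted as higher in the first 3 of these cases. ADE12 read 3721, 3746 and 3610, with a log2 change of 0.08 (95% interval -0.03 to 0.18, adjusted p = 0.176). Under quantile normalization that change was 0.21 (adjusted p = 0.000997), and with equal array medians it was -0.04 (adjusted p = 0.475).

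**Figure D4:**
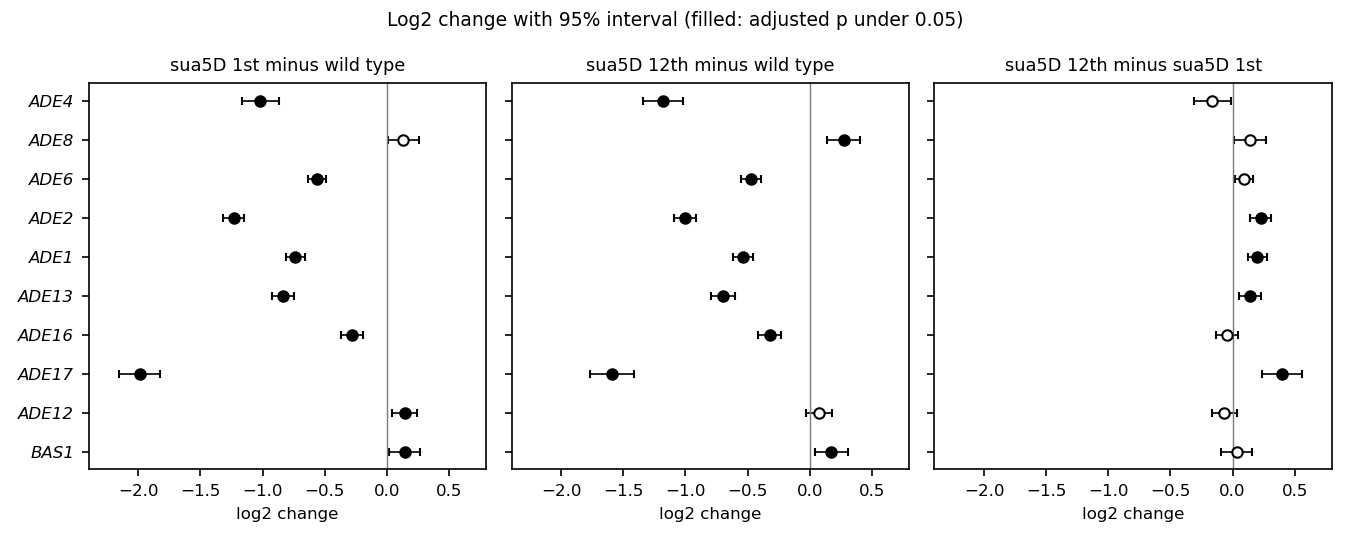
Log2 change of each gene with its 95% interval for sua5D 1st minus wild type, sua5D 12th minus wild type, and sua5D 12th minus sua5D 1st. Filled points have an adjusted p under 0.05. ADE17 is the farthest left in both comparisons with the wild type, and in the last panel it is the farthest right, at 0.40.

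The comparison of sua5D 12th with sua5D 1st asks whether expression moved during propagation, and here both groups were of mating type a. ADE17, ADE2, ADE1 and ADE13 were higher at the 12th restreaking and no purine gene was called lower. Over all genes 6.83% were called higher and 9.07% lower, 15.9% in either direction. All arrays of sua5D 12th lay above all of sua5D 1st for 5 of the 10 genes, the 4 called and ADE6, and below for none, against 13.4% and 15.5% of all genes. The median log2 change of the 10 genes was 0.11, beside 0.00356 for all genes. ADE17 read 1565, 1697 and 1664 in sua5D 12th and 1432, 1081, 1302 and 1179 in sua5D 1st. It was 1.32-fold higher (log2 change 0.40, SE 0.08, adjusted p = 0.0057), with no overlap. ADE2 was 1.17-fold higher at 1681 ± 57.3 in sua5D 12th (SD, n = 3) and 1434 ± 27.0 in sua5D 1st (SD, n = 4; limma adjusted p = 0.00354). ADE1 was 1.15-fold higher at 2492 ± 9.4 in sua5D 12th (SD, n = 3) and 2168 ± 36.7 in sua5D 1st (SD, n = 4; limma adjusted p = 0.00354). These 3 calls held under all 22 alternatives, which include either clone pair of sua5D 1st alone.

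ADE13 was higher by a log2 change of 0.14 (adjusted p = 0.0364), but passed in only 12 of the 22 alternatives. Among the losses were those without replicate 1 or 2 of sua5D 1st (adjusted p = 0.0665 and 0.0669) and without replicate 1 or 3 of sua5D 12th (adjusted p = 0.151 and 0.0839). The other 6 genes did not pass. ADE6 changed by 0.09 (95% interval 0.02 to 0.17, adjusted p = 0.0936) and ADE8 by 0.14 (0.01 to 0.27, adjusted p = 0.122). The change of ADE4 was -0.16 (-0.31 to -0.01, adjusted p = 0.128), that of ADE12 -0.07 (-0.17 to 0.03) and that of ADE16 -0.04 (-0.13 to 0.04). BAS1 changed by 0.03 (-0.09 to 0.16). The group order of the levels was thus sua5D 1st, sua5D 12th, wild type from low to high for ADE1, ADE2 and ADE17, and for ADE13 as far as its call holds. For ADE4, ADE6 and ADE16 both deletion groups lay below the wild type and did not differ beyond the test, which does not show them equal. ADE6 was a near miss, with every sua5D 12th array above every sua5D 1st array. Its call was unchanged in 21 of the 22 alternatives, where the lowest adjusted p was 0.0268.

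Genes that feed the pathway were counted beside the shares of all genes, 37.5% lower and 41.5% higher in sua5D 1st. PRPP synthetase, which makes the starting sugar phosphate, is encoded by 5 genes. PRS4 and PRS5 were lower in sua5D 1st and the other 3 did not pass, a share near that of all genes. PRS4 averaged 1408 ± 43.1 in sua5D 1st (SD, n = 4) and 2232 ± 51.7 in the wild type (SD, n = 3), a log2 change of -0.66 (limma adjusted p = 4.04e-09). PRS2 and PRS3 passed as lower as well with equal array medians (adjusted p = 0.0121 and 0.00112) and without replicate 3 of sua5D 1st (adjusted p = 0.0162 and 0.0423), which made 4 of 5. Folate carries the formyl groups that Ade8, Ade16 and Ade17 use. Of 9 genes of the folate one-carbon supply, 5 were lower in sua5D 1st and 2 higher, but only 1 was higher when any wild-type replicate or replicate 3 or 4 of sua5D 1st or replicate 3 of sua5D 12th was left out. The smaller of the 2 rises was 0.10 (adjusted p = 0.044). Equal array medians lowered the change of the median gene by 0.109, so that call is also open to scaling. The serine hydroxymethyltransferase gene SHM2 changed by -0.68 (adjusted p = 1.62e-09) and the methylenetetrahydrofolate dehydrogenase gene MTD1 by -0.58 (adjusted p = 1.64e-06). ADE3, the cytosolic C1-tetrahydrofolate synthase gene, averaged 4049 ± 133 in sua5D 1st (SD, n = 4) and 4893 ± 89.2 in the wild type (SD, n = 3). Its log2 change was -0.27 (adjusted p = 5.09e-06), and that of its mitochondrial counterpart MIS1 was -0.32 (adjusted p = 5.83e-06). At the 12th restreaking 5 of the 9 were lower and 3 higher than in the wild type, against 36.9% and 40.9% of all genes, and between the deletion groups none of the 9 passed. The smallest of the 3 rises was 0.14 (adjusted p = 0.0419), where equal array medians lowered the change of the median gene by 0.111.

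In the GMP branch IMD4, an IMP dehydrogenase gene, was lower in sua5D 1st (log2 change -0.38, adjusted p = 6.52e-07). GUA1, the GMP synthase gene, changed by -0.11 (adjusted p = 0.0281) on the deposited scale and by 0.04 (adjusted p = 0.337) after quantile normalization. The GUA1 call was also lost without replicate 1 or 4 of sua5D 1st (adjusted p = 0.0685 and 0.0612) and without wild-type replicate 2 or 3 (adjusted p = 0.0768 and 0.109). IMD3 changed by 0.03 (adjusted p = 0.624). IMD2, another IMP dehydrogenase gene, differed between the clone pairs: it read 702 and 672 in replicates 1 and 2 of sua5D 1st and 1223 and 1239 in replicates 3 and 4. It read 1043, 1037 and 1017 in sua5D 12th and 576, 538 and 617 in the wild type. Its log2 change was 0.66 in sua5D 1st (adjusted p = 0.00391). Against sua5D 1st, the change of IMD2 in sua5D 12th was 0.58 with replicates 1 and 2 alone (adjusted p = 0.00011) and -0.25 with replicates 3 and 4 alone (adjusted p = 0.0237). The IMD genes are close paralogs, so their probe sets may share signal. LYS2 and MET17 split between the same pairs, and their part in the difference was not tested.

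In purine salvage and interconversion 10 of 14 genes were lower in sua5D 1st and 3 higher, against 37.5% and 41.5% of all genes. The adenylate kinase gene ADK1 averaged 2433 ± 90.2 in sua5D 1st (SD, n = 4) and 4362 ± 31.5 in the wild type (SD, n = 3), a log2 change of -0.84 (limma adjusted p = 1.17e-10). XPT1, for xanthine phosphoribosyltransferase, changed by -0.55 (adjusted p = 6.53e-07), the AMP deaminase gene AMD1 by -0.42 (adjusted p = 2.32e-06) and the guanylate kinase gene GUK1 by -0.30 (adjusted p = 5.07e-06). The 3 higher genes were ADK2 (0.56, adjusted p = 1.18e-05), GUD1 (0.51, adjusted p = 1.21e-05) and APT2 (0.48, adjusted p = 3.05e-05). That call of GUD1 was lost in 1 of the 22 alternatives (adjusted p = 0.101). Between sua5D 12th and sua5D 1st, HPT1, AAH1, ISN1 and ADK1 were higher and GUD1 lower, names given after their values were seen, against 6.83% and 9.07% of all genes. AAH1, the adenine deaminase gene, changed by 0.24 (adjusted p = 0.0101) and passed in all 22 alternatives. There its change ran from 0.15 to 0.33, with a highest adjusted p of 0.0487. AAH1 too differed between the clone pairs of sua5D 1st, at 1254 and 1253 in replicates 1 and 2 but 1447 and 1386 in replicates 3 and 4. It read 1592, 1563 and 1575 in sua5D 12th. ISN1 changed by 0.21 (adjusted p = 0.013) and was lost without sua5D 12th replicate 3 (adjusted p = 0.0719). GUD1, for guanine deaminase, changed by -0.29 (adjusted p = 0.0161) and was lost without sua5D 12th replicate 2 or 3 (adjusted p = 0.0659 and 0.0616). HPT1 changed by 0.30 (adjusted p = 0.0304) and ADK1 by 0.13 (adjusted p = 0.0296). HPT1 followed the clone pairs of sua5D 1st, at 1271 and 1316 in the first pair but 1634 and 1637 in the other. Its change was 0.47 with replicates 1 and 2 alone (adjusted p = 0.000324) and 0.13 with replicates 3 and 4 alone (adjusted p = 0.149). HPT1 was lost in 8 of the 22 alternatives (adjusted p = 0.0536 to 0.149) and ADK1 in 9 (0.0504 to 0.125), each of which includes leaving out any sua5D 12th array or replicate 1 or 2 of sua5D 1st. Of 4 purine transport genes 3 were lower in sua5D 1st, against 37.5% of all genes. FCY2, the purine-cytosine permease gene, changed by -0.29 (adjusted p = 4.36e-05), and its relatives FCY21 and FCY22 by -0.76 (adjusted p = 1.54e-06) and -0.49 (adjusted p = 0.00361). FCY22 was dim, at 27.3 to 46.7 in sua5D 1st and 51.2 to 69.1 in the wild type. Its change ran from -1.11 to -0.28 over the 22 alternatives.

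Histidine synthesis shares AICAR with the purine pathway, since its enzyme His7 releases that intermediate. Of 7 HIS genes 4 were higher in sua5D 1st and 1 lower, with a median log2 change of 0.25. The shares of all genes were 41.5% higher and 37.5% lower, and no difference from the ADE genes was tested. HIS2 changed by 1.03 (adjusted p = 1.48e-10), HIS5 by 0.97 (adjusted p = 2.09e-09) and HIS6 by -0.42 (adjusted p = 7.74e-06). HIS3 changed by 1.34 (adjusted p = 4.16e-12), in a strain background where it is an auxotrophic marker. Of the regulators, GCN4, the activator of amino acid synthesis genes, which also acts on some ADE genes, averaged 5785 ± 227 in sua5D 1st (SD, n = 4) and 4578 ± 55.4 in the wild type (SD, n = 3). Its log2 change was 0.34 (limma adjusted p = 9.71e-07). PHO2, the partner of Bas1, read 408, 384, 348 and 359 in sua5D 1st and 400, 449 and 404 in the wild type. Its groups overlapped, with a log2 change of -0.15 (adjusted p = 0.0527), but it passed as lower in 6 of the 22 alternatives. These were quantile normalization (-0.36, adjusted p = 0.000197), equal array medians (-0.26, adjusted p = 0.00255), replicates 3 and 4 alone (-0.23, adjusted p = 0.011), the fit without an intensity trend (adjusted p = 0.0473), and leaving out replicate 1 of sua5D 1st (adjusted p = 0.0178) or of the wild type (adjusted p = 0.0486). PHO2 was lower in sua5D 12th, at 377, 362 and 343 (log2 change -0.20, adjusted p = 0.0191), a call lost without sua5D 12th replicate 3 (adjusted p = 0.0788) or wild-type replicate 2 (adjusted p = 0.0845).

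**Figure D5:**
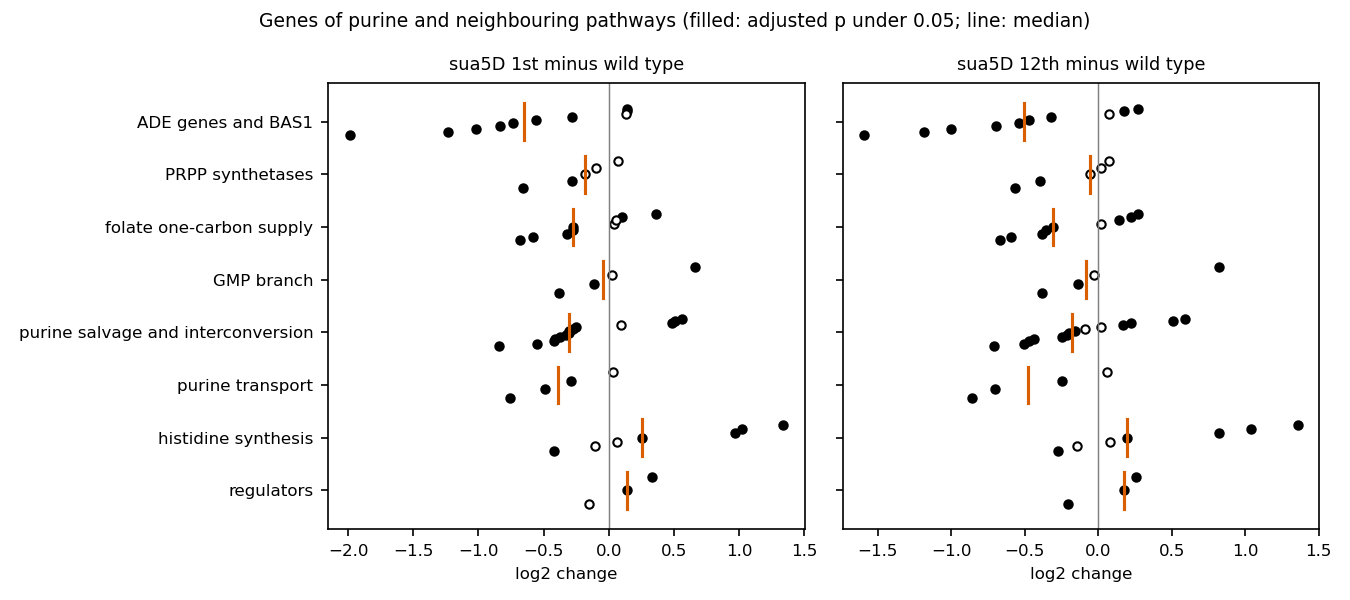
Log2 change of every measured gene of the purine list and of its neighbouring pathways, for sua5D 1st minus wild type (left) and sua5D 12th minus wild type (right). Filled points have an adjusted p under 0.05, and the line is the list's median, which is -0.65 for the ADE genes with BAS1 and 0.25 for histidine synthesis at the first restreaking.

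Likeness of profile was measured as Pearson's r over the 10 arrays with the mean of the standardised log2 intensities of the 8 members on the way to IMP. Since the arrays fall into deletion and wild-type sets, r mostly reflects that division, and it is given as a description. ADE1, ADE2, ADE17, ADE13 and ADE6 had r of 0.994, 0.994, 0.993, 0.990 and 0.982 with this mean, of which each is a part. ADE4 had 0.931 and ADE16 0.923, while ADE8 had -0.549, ADE12 -0.715 and BAS1 -0.746. Outside the lists, 5061 genes with a mean intensity of at least 100 over the 10 arrays were ranked. The 6 most alike were YBR096W, ERG20 of the ergosterol pathway, SAM35 of the mitochondrial outer membrane, the alpha-tubulin gene TUB3, the peptide transporter gene PTR2 and MRH4, with r of 0.994 to 0.995. In sua5D 1st, sua5D 12th and wild type PTR2 averaged 72.0, 114 and 2751, and MRH4 averaged 92.9, 101 and 167. Their wild-type arrays thus helped these genes past the intensity filter. PTR2 had a log2 change of -4.98 in sua5D 1st and ERG20 of -0.50, so likeness of profile did not mean likeness of size. The profile of BAS1 was nearest to those of FES1 (r = 0.933), MRPL51 (0.925) and PDR17 (0.923), and that of ADE12 to those of SNF8 (0.900), ESF1 (0.891) and YMC2 (0.877).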

How the data were processed

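The authors deposited 1 linear intensity per probe set and array, and per the labels' protocols biotin-labelled RNA was hybridised to Affymetrix arrays. No source used here names the software that summarised and scaled the probes. Each array's mean without the outer 2% at each end was 500.2. The platform annotation and the R64 RefSeq gene table named 5449 genes. The brightest probe set stood for the 47 genes with several. Intensities were taken as log2(intensity + 16), so fold changes are on that scale. Groups came from the sample titles. limma 3.58.1 in R 4.3.3 took the 10 arrays together, with a mean for each group (eBayes with intensity trend, two-sided). Settings varied were scaling, pseudocount, background filter, probe-set rule, trend, the arrays fitted, a replicate block, each array left out, and the clone pairs. The isozyme ratio was tested with scipy 1.17.1. Tested on simulated data with 200 of 5449 genes changed, the fit for sua5D 1st against wild type recovered 90% of changes of 0.5 and 100% of changes of 1 on the log2 scale, with 7 false calls. The simulated arrays held no clone pairs and far fewer changed genes than the 79% called here. Smaller changes were not simulated, so these figures need not hold for the data. All 10 members are named, and of each list the 4 measured genes with the smallest adjusted p in sua5D 1st against wild type. Members and lists were chosen with earlier results of these data known. No promoter or protein sequence was used here.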

Additional observations from a re-analysis of the deposited data

Results flagged for a closer look

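In 5 of 49 named genes, 1 of the 4 arrays of sua5D 1st stood apart from the other 3 by Dixon's ratio, and chance alone gives about 1 in 20 such groups. For ADE1 it was the lowest value, 2112, but the other 3 lay within 1 intensity unit of each other and the gap is small beside the wild-type difference. For IMD3 the lowest value was 3580 and for SAM35 619. For HIS2 the highest value was 1339 and for HIS6 450.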

How the results depend on the processing

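In the 22 alternatives the 7 lower calls against wild type held in both comparisons. Alternatives that only changed arrays outside a comparison left its estimates unchanged and altered only the spread. With equal array medians the number of members called higher was 0 at the first restreaking and 1 at the 12th, against 2 each as deposited. Leaving out 1 array at a time gave 0 to 3 and 1 to 2. The isozyme difference of -1.52 ranged from -1.58 to -1.46 with 1 array left out, and without a wild-type array its exact p was 0.0556, the smallest that 7 against 2 arrays allow. Some small changes turned sign. GUA1 came to 0.037 (1st) and 0.048 (12th) IMD3 to 0.12 (12th) and GUD1 to -0.13 (12th) after quantile normalization, FES1 to -0.027 and -0.0047 with equal medians, and IMD2 between the deletion groups to -0.25 with replicates 3 and 4 alone. Same-numbered arrays of different groups did not deviate together (r of -0.271 to 0.0797), so the numbers pair nothing. With a replicate block the members called lower stayed at 7 against wild type in both comparisons, and those called higher between the deletion groups were 3, against 4 without it. Over all genes, calls between the deletion groups fell to 338 with the clone pairs averaged and to 544, 375 and 267 without sua5D 12th replicate 1, 2 or 3, against 866.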
